A study of Mus musculus with 4 samples.

Results

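The genes described here are 6 genes of the complement system, of 19465 genes listed in each section of mouse brain. They were chosen by symbol: C1qa, C1qb and C1qc, which encode the 3 chains of C1q, C3 and C4b, which encode the central complement proteins C3 and C4, and C3ar1, the receptor for the C3a fragment. All 6 were listed and had at least 1 count in each section. Transcripts were counted on spatial arrays (Visium, formalin-fixed tissue), in which each spot of a grid catches RNA from a small patch of a 5 µm section, and in which a spot can hold several cells. Sections of 1 group came from rNLS8 mice and those of the other from mice labelled Control, with 2 sections in each group and 1 section per sample. All 4 samples are labelled 11 weeks old, and the labels give withdrawal of doxycycline 3 weeks earlier as the treatment of both groups. As background, rNLS8 mice carry a human TDP-43 gene without its nuclear localisation signal, expressed in neurons through a neurofilament heavy chain promoter once doxycycline is withdrawn. The labels name no allele for the controls. In each group replicate 1 is labelled female and replicate 2 male.

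Complement is a chain of blood and tissue proteins that tags cells and debris for removal. C1q binds a target and, through its proteases, cleaves C4, which leads on to cleavage of C3 and the release of C3a, whose receptor sits on myeloid cells. In the brain C1q is made mainly by microglia, C4 by astrocytes, oligodendrocytes and neurons, and the pathway is known for tagging synapses that microglia then remove.

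The files held 28056089 and 17627577 unique molecular identifiers (UMI, counted transcripts) in rNLS8 replicates 1 and 2, and 19064969 and 23869254 in control replicates 1 and 2. Tardbp, the TDP-43 gene symbol, had 197 and 138 UMI in the rNLS8 sections and 0 and 0 in the control sections, where in counts-per-million (CPM) a count of 0 allows up to 0.158 and 0.126. The files give that row the mouse gene's identifier, and at 0 in the control brains it gives no level of the mouse's own transcript. The 4 Y-linked genes listed summed to 137 and 139 CPM in the rNLS8 sections, against 0 and 107 in the control sections. The library labelled rNLS8 replicate 1 therefore goes against its label female. Levels are given by section, and log2 fold changes of members in whole sections and in single regions also without it. Spots were grouped by expression, without the complement genes, into regions named after their marker genes. The cortex, for example, took in 912 and 963 spots in rNLS8 and 1059 and 790 in control sections. Its clusters are called by genes among their leading ones, though not always the first. The cluster called Fezf2-Tbr1 shares both of these markers with that called Nr4a2-Neurod6. No label says whether the sections shared a slide or a day.

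The 3 C1q genes lie side by side on chromosome 4, within 18719 bases (chr4:136880126-136898844 in GRCm38.p6). C4b lies on chromosome 17 (chr17:34728139-34743902), 1 of 2 C4 genes there. Its near-identical neighbour C4a, a transcribed pseudogene in the annotation, is not among the listed genes, so C4b counts may include transcripts of both and are uncertain to that extent. C3 also lies on chromosome 17 (chr17:57203967-57228136) and C3ar1 on chromosome 6 (chr6:122847140-122856157).

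The promoters of C1qb and C1qc are shown because the C1q genes moved together, with that of C3ar1, which is also expressed by myeloid cells, beside them. They are the 250 bases before each listed start, from RefSeq (GRCm38.p6), on the minus strand, and 4 of the 6 members had an entry, C1qa and C4b being the others. The windows are chr4:136886201-136886450 for C1qb, chr4:136892915-136893164 for C1qc and chr6:122856158-122856407 for C3ar1, and capitals mark the motif found.
C1qb: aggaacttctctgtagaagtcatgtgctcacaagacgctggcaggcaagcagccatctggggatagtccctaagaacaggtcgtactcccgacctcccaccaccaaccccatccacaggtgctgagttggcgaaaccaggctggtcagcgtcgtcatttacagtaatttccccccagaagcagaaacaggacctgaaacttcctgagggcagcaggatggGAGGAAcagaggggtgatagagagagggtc
C1qc: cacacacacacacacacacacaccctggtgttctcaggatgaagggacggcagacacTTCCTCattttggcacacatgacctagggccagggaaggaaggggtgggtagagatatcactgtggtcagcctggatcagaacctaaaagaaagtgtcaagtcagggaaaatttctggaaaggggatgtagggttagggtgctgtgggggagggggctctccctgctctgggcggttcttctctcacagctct
C3ar1: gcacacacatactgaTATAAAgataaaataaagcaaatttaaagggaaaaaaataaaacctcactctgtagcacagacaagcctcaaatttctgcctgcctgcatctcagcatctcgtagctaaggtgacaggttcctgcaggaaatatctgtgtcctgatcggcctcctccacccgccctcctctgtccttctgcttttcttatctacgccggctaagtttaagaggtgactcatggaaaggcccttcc
GAGGAA, the core bound by ETS factors such as the myeloid factor PU.1, was found once in C1qb, 30 bases before the start. In C1qc it lay 193 bases before the start on the opposite strand, and so is printed as TTCCTC. In all, 23.3% of 32851 promoters of this length hold it on either strand. TATAAA, the TATA box, was found in C3ar1, 235 bases before the start, and is held by 12.4% of promoters. The interferon-stimulated response element, searched by its repeated core, is held by 2.98% of promoters and was not in these letters of the 4 members with an entry. C3 held none of the 3 motifs. The search covered both strands, and a match is a description of the sequence and not a site shown to be used.

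In whole sections, transcripts of all 3 C1q genes, C3ar1 and C4b stood higher in both rNLS8 sections than in both controls, by 2.13- to 3.56-fold, but none passed the test over all genes. C1qa, which encodes the A chain of C1q, stood at 287 and 459.9 CPM in rNLS8 replicates 1 and 2, against 169 and 182 CPM in control replicates 1 and 2. C1qb, the B chain, had 84.1 and 156 CPM in rNLS8 sections, against 51.2 and 49.5 CPM in controls. C1qc, the C chain, had 122 and 221 CPM in rNLS8 sections, against 64.8 and 70.3 CPM in controls. For each chain rNLS8 replicate 2 was the highest section, rNLS8 replicate 1 the next, and the 2 controls lay close together below both. C4b, complement C4, had 97.9 and 159 CPM in rNLS8 sections, against 43.2 and 28.9 CPM in controls. C3ar1 had 6.69 and 12.9 CPM in rNLS8 sections, against 2.51 and 3.26 CPM in controls. Neither gene's groups overlapped, and again rNLS8 replicate 2 was highest. C3, from which C3a and C3b are cut, was barely counted, with 21 and 24 UMI in rNLS8 sections against 16 and 7 UMI in controls. As CPM its groups overlapped (0.721 and 1.29 CPM in rNLS8 sections, against 0.913 and 0.296 CPM in controls), so any statement on C3 is limited by depth. In these spots fewer cells of a type and less RNA per cell cannot be told apart.

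Of the 6 members, 5 had both rNLS8 sections above both controls, all but C3, where 26.9% of the 13444 genes tested had. The log2 fold changes were 1.83 for C4b, 1.75 for C3ar1, 1.35 for C1qc, 1.25 for C1qb, 1.09 for C1qa and 0.75 for C3. None of the 6 was called, with 0% of all genes called, by edgeR's quasi-likelihood test with Benjamini-Hochberg adjustment (adjusted p from 0.167 for C4b to 0.607 for C3). At an unadjusted p under 0.05 there were 2093 of the 13444 genes, and DESeq2 called 520 after adjustment, with 5 of the 6 members among them, all but C3. Without rNLS8 replicate 1 the log2 fold changes were 2.14 for C4b, 2.15 for C3ar1, 1.71 for C1qc, 1.63 for C1qb and 1.39 for C1qa. Over all fits that left out 1 section, the lowest were 1.44, 1.21, 0.86, 0.74 and 0.71 in the same order. That of C3 ran from 0.096 to 1.72 over these fits.

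**Figure D1:**
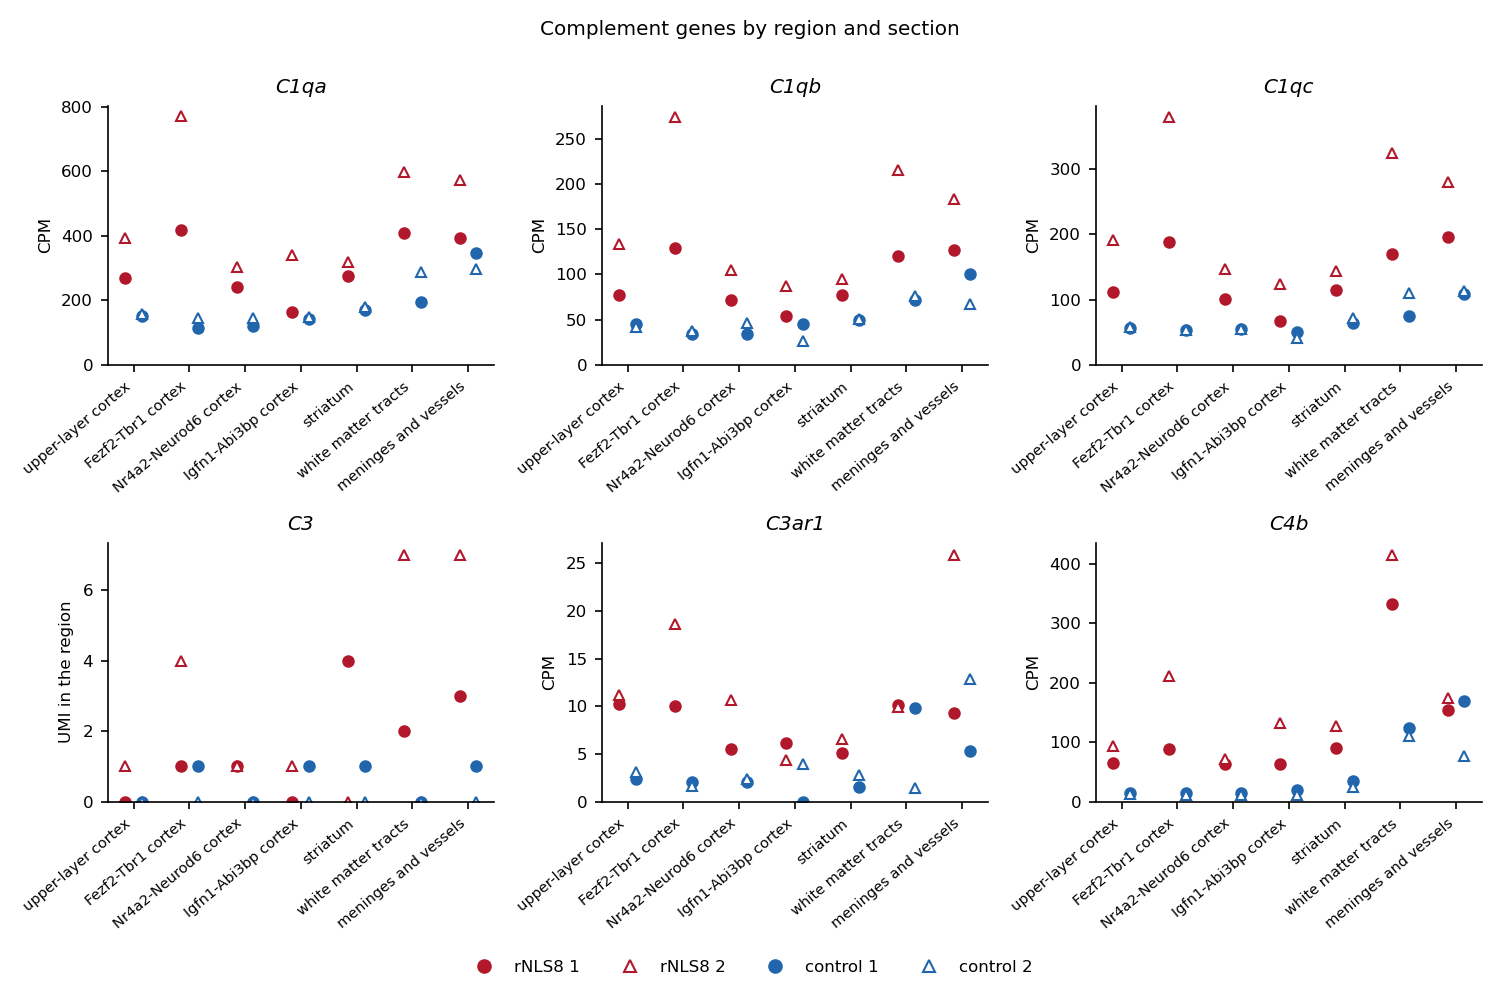
Level of each complement gene by region, in CPM (in UMI for C3) on linear axes, with 1 point per section; rNLS8 sections (red) stand left of control sections (blue), circles are replicate 1 and open triangles replicate 2. In the cortex cluster named after its markers Fezf2 and Tbr1, C4b reached 88.0 and 212 CPM in rNLS8 sections against 15.1 and 10.8 CPM in controls. In meninges and vessels the groups overlapped (154 and 174 against 169.8 and 77.7 CPM).

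The C1q genes had different regional orders in the rNLS8 and control sections, as a description without a test. In rNLS8 sections the Fezf2-Tbr1 cluster of the cortex, which also holds the deep-layer marker Cplx3, had the highest mean C1qa of 10 named regions, at 595 ± 249 CPM (SD, n = 2), followed by white matter tracts (503 ± 132) and meninges and vessels (482 ± 128). In control sections the same cluster ranked 9 of 10 at 131 ± 21.7 CPM, and meninges and vessels (322 ± 35.6), white matter tracts (241 ± 65.3) and basal forebrain (239 ± 27.3) stood highest. C1qb and C1qc also had their highest mean in that cluster in rNLS8 sections, at 202 ± 103 and 284 ± 135 CPM. In control sections it was the lowest of the 10 regions for C1qb (35.9 ± 3.05 CPM) and ranked 8 for C1qc (53.6 ± 0.687 CPM). The order of regions in rNLS8 sections is loose, since for C1qa all 9 pairs of neighbouring regions overlapped between sections, against 5 of 9 in controls. In rNLS8 replicate 2 alone the Fezf2-Tbr1 cluster was also the highest of the 10 for all 3 chains. In rNLS8 replicate 1 it was highest for C1qa, and for C1qb by little (129 CPM, against 127 in meninges and vessels). For C1qc meninges and vessels then stood above it (196 against 188 CPM).

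C4b followed another order. In rNLS8 sections it was highest in white matter tracts, at 374 ± 58.8 CPM, then in the ependyma that lines the ventricles (225 ± 58.9) and in meninges and vessels (164 ± 14.2), with the Fezf2-Tbr1 cluster next at 149.8 ± 87.3 CPM. White matter and ependyma each lay clear of the region next below, and meninges and the Fezf2-Tbr1 cluster overlapped. In control sections ependyma (176 ± 61.1), meninges and vessels (124 ± 65.1) and white matter (118 ± 9.6) were highest, each overlapping with the next in that order, and the 4 cortical clusters were the lowest, between 12.96 and 15.6 CPM on average. C3ar1 had its highest mean in meninges and vessels in both groups, at 17.6 ± 11.7 CPM in rNLS8 and 9.04 ± 5.34 CPM in control sections, with the Fezf2-Tbr1 cluster next in rNLS8 (14.3 ± 6.03) and last in control sections (1.87 ± 0.331). Of the 68 UMI of C3, the ependyma, the smallest region, held 6 and 0 in rNLS8 sections against 5 and 4 in controls.

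Taking all cortical spots, C4b rose 7.50-fold in rNLS8 and was the member called there. It had 72.9 and 129 CPM in rNLS8 sections, against 15.3 and 11.7 CPM in controls. The lower rNLS8 section, replicate 1, stood far above the higher control, and the log2 fold change was 2.91 (SE 0.316, edgeR with Benjamini-Hochberg adjustment, adjusted p = 0.0333). C1qa had 308 and 490.05 CPM in rNLS8 sections, against 129 and 148 CPM in controls. C1qb had 92.9 and 170.3 CPM in rNLS8 sections, against 38.0 and 40.004 CPM in controls. C1qc had 134 and 238 CPM in rNLS8 sections, against 55.0 and 53.4 CPM in controls. The groups of each C1q gene were well apart, with the 2 rNLS8 sections further from each other than the 2 controls. C3ar1 had 8.49 and 13.2 CPM in rNLS8 sections, against 1.97 and 2.43 CPM in controls, on 89 and 113 UMI against 14 and 20 UMI. Its groups did not overlap either. C3 had 2 and 7 UMI in rNLS8 sections, against 2 and 0 UMI in controls, too few to test, and the 0 allows up to 0.358 CPM.

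Over the 12306 genes tested in the cortex, 0.293% were called higher in rNLS8 (36 genes) and 47 were called lower. Of the 5 members tested, 1 was called, C4b. C1qa (log2 fold change 1.53), C1qb (1.75), C1qc (1.78) and C3ar1 (2.28) fell just short by edgeR, with adjusted p between 0.0516 and 0.0546 after Benjamini-Hochberg adjustment. The calls turned on the settings, and with library totals alone C4b was not called either, at a log2 fold change of 3.06 (adjusted p = 0.0522). With rNLS8 replicate 1 left out, the log2 fold changes were 1.82 for C1qa, 2.12 for C1qb and 2.13 for C1qc. C3ar1 then stood at 2.56 and C4b at 3.26. Over all fits that left out 1 section, the lowest were 1.15, 1.25, 1.30, 1.94 and 2.43 in the same order. DESeq2 called all 5. In 5 of 6 members, all but C3, both rNLS8 sections lay above both controls, where 29.0% of genes did.

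Within the cortex, C4b was called higher in all 4 clusters, and the C1q genes and C3ar1 were called higher in 2 of them. The Fezf2-Tbr1 cluster (329 and 331 spots in rNLS8, 372 and 271 in control sections) had the largest log2 fold changes of the 4, though clusters were not tested against each other. There C1qa had 419 and 770.3 CPM in rNLS8 sections, against 116 and 146 CPM in controls. C1qb had 129 and 274 CPM in rNLS8 sections, against 33.7 and 38.0 CPM in controls. C1qc had 188 and 379.9 CPM in rNLS8 sections, against 54.1 and 53.1 CPM in controls. Even the lower rNLS8 section, replicate 1, was well above the higher control for each chain. Of all genes tested in this cluster, 28.5% had both rNLS8 sections above both controls. C3ar1 had 10.1 and 18.6 CPM in rNLS8 sections, against 2.11 and 1.64 CPM in controls, and C4b had 88.0 and 212 CPM in rNLS8 sections, against 15.1 and 10.8 CPM in controls.

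In that cluster all 5 members tested were called higher, where 1.63% of 10981 genes were (179 genes). By edgeR with Benjamini-Hochberg adjustment the log2 fold change of C4b was 3.52 (SE 0.433, adjusted p = 0.0106), an 11.5-fold difference, and that of C3ar1 was 2.90 (SE 0.497, adjusted p = 0.0228). C1qb stood at 2.48 (SE 0.340, adjusted p = 0.0141), C1qc at 2.40 (SE 0.312, adjusted p = 0.0117) and C1qa at 2.18 (SE 0.284, adjusted p = 0.0117). Without rNLS8 replicate 1 the log2 fold changes ran from 2.55 for C1qa to 4.02 for C4b. Without rNLS8 replicate 2, C3ar1 was not called (2.41, adjusted p = 0.101). Cst7, a gene of activated microglia, is among the genes that lead this cluster, although it and the other microglial genes listed took no part in the grouping. Other genes that differ between the groups took part, and how far this enters the size of these changes was not tested.

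In the upper-layer cluster, marked by Cux2 and Lamp5, the same 5 members were called, where 1.41% of 10433 genes were called higher. C4b had 65.7 and 93.7 CPM in rNLS8 sections, against 14.2 and 12.7 CPM in controls (log2 fold change 2.56, edgeR with Benjamini-Hochberg adjustment, adjusted p = 0.000689). C1qa had 271 and 393 CPM in rNLS8 sections, against 152 and 157 CPM in controls (1.10, adjusted p = 0.0147). The groups were apart for both genes, and C1qb (1.26), C1qc (1.39) and C3ar1 (1.93, adjusted p = 0.0486) were apart as well. In this cluster 26.9% of genes had both rNLS8 sections above both controls. The C3ar1 call was lost with library totals alone (2.06, adjusted p = 0.0525) and without rNLS8 replicate 1 (1.99, adjusted p = 0.291), and without rNLS8 replicate 2 C4b was the member called.

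C4b was the 1 member called in the other cortical clusters, in the striatum and in white matter. In the Nr4a2-Neurod6 cluster it had 63.3 and 71.9 CPM in rNLS8 sections, against 14.8 and 11.96 CPM in controls (log2 fold change 2.34, adjusted p = 0.0187 by edgeR; 0.124% of genes called higher). In the Igfn1-Abi3bp cluster it had 63.8 and 133 CPM in rNLS8 sections, against 19.3 and 11.9 CPM in controls (2.57, adjusted p = 0.00913 by edgeR; 0.374% called higher). The groups lay well apart in both clusters, where 26% and 23.4% of genes had both rNLS8 sections above both controls. In the striatum C4b had 90.4 and 127 CPM in rNLS8 sections, against 35.2 and 24.3 CPM in controls (1.87, adjusted p = 0.0343 by edgeR; 0.156% called higher), a call that was lost without rNLS8 replicate 2 (1.61, adjusted p = 0.0579). In white matter tracts it had 332 and 415 CPM in rNLS8 sections, against 124 and 111 CPM in controls (1.67, adjusted p = 0.00345 by edgeR; 0.338% called higher). White matter thus had the highest level of C4b in rNLS8 sections and a smaller log2 fold change than any cortical cluster.

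The C1q genes stood higher in rNLS8 in these regions too, without a call. In the striatum C1qa had 276 and 320.1 CPM in rNLS8 sections, against 169.6 and 181 CPM in controls (log2 fold change 0.76, adjusted p = 0.101 by edgeR). In white matter C1qc had 169 and 325 CPM in rNLS8 sections, against 75.2 and 111 CPM in controls (1.39, adjusted p = 0.059 by edgeR). The groups did not overlap in either, where 25.4% and 23.5% of genes had both rNLS8 sections above both controls. Without rNLS8 replicate 1 the log2 fold changes of C1qa, C1qb and C1qc were 1.31, 1.55 and 1.80 in white matter. In the Nr4a2-Neurod6 cluster they were then 1.19, 1.38 and 1.43. In the Igfn1-Abi3bp cluster C1qa then stood at 1.22 and C1qc at 1.42, and in the striatum C4b stood at 2.097. C3ar1 in the striatum stood at 1.35 (adjusted p = 0.233 by edgeR) and in the Nr4a2-Neurod6 cluster at 1.82 (adjusted p = 0.174 by edgeR).

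Among the regions tested, meninges and vessels were the one where C4b did not separate the groups. It had 154 and 174 CPM in rNLS8 sections, against 169.8 and 77.7 CPM in controls (log2 fold change 0.45, adjusted p = 0.602 by edgeR), so that control replicate 1 lay between the rNLS8 sections. Without control replicate 2 the value was -0.06, and without control replicate 1 it was 1.08. No member was called there, where 0.135% of genes were called higher, although C1qc had 196 and 281 CPM in rNLS8 sections against 108 and 114 CPM in controls (1.11, adjusted p = 0.0638 by edgeR). Without rNLS8 replicate 1 the log2 fold change of C1qc was 1.34. C4b also overlapped in the ependyma, which had too few spots for a test (184 and 267 CPM in rNLS8 sections, against 219 and 133 CPM in controls).

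**Figure D2:**
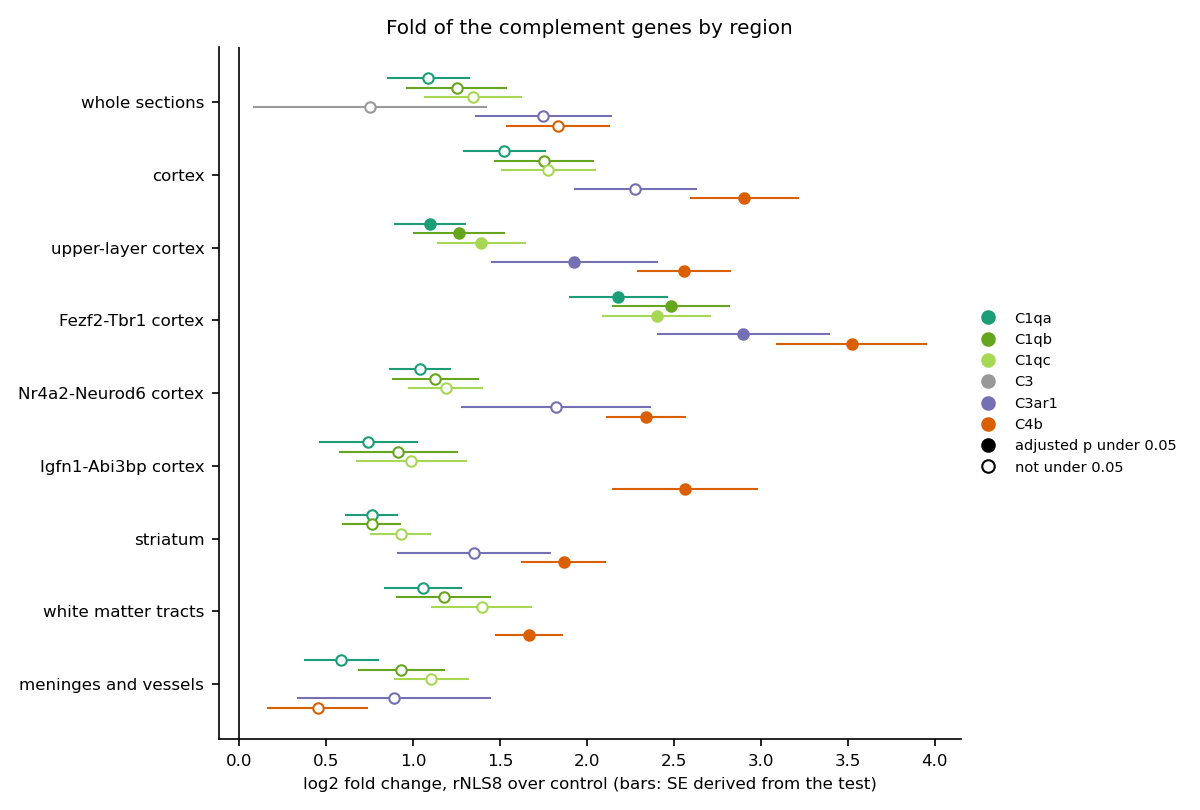
Log2 fold change of each complement gene, rNLS8 over control, in each tested region, with its standard error as a bar; filled points passed an adjusted p of 0.05 and open points did not. C4b was called in every region shown except whole sections and meninges and vessels, and its largest value was 3.52 in the Fezf2-Tbr1 cluster.

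The difference between rNLS8 and control was larger in the cortex than in all other spots for 3 members, tested as an interaction within sections. Outside the cortex the log2 fold changes were 0.84 for C1qa, 0.95 for C1qb, 1.09 for C1qc, 1.45 for C3ar1 and 1.56 for C4b. The log2 fold change in the cortex exceeded that outside by 1.29 for C4b (SE 0.127, adjusted p = 0.00537), 0.77 for C1qb (SE 0.104, adjusted p = 0.0333) and 0.66 for C1qa (SE 0.0860, adjusted p = 0.0328), by edgeR with Benjamini-Hochberg adjustment. C1qc (0.66, adjusted p = 0.0687) and C3ar1 (0.86, adjusted p = 0.435) were not called. These 3 members were among 6 genes called of 13013 (0.0461%), of which 5 were larger in the cortex. The calls did not hold when either control section was left out. Over all fits that left out 1 section, the difference ran from 0.58 to 0.72 for C1qa and from 0.67 to 0.84 for C1qb. It ran from 0.52 to 0.76 for C1qc and from 1.13 to 1.40 for C4b. Set against the striatum alone, the cortex exceeded it by 0.95 for C4b, 0.87 for C1qb, 0.75 for C1qc and 0.69 for C1qa, all called (0.545% of 12657 genes called). Set against white matter alone, only C4b was called (1.21, 0.570% of 12107 genes called).

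**Figure D3:**
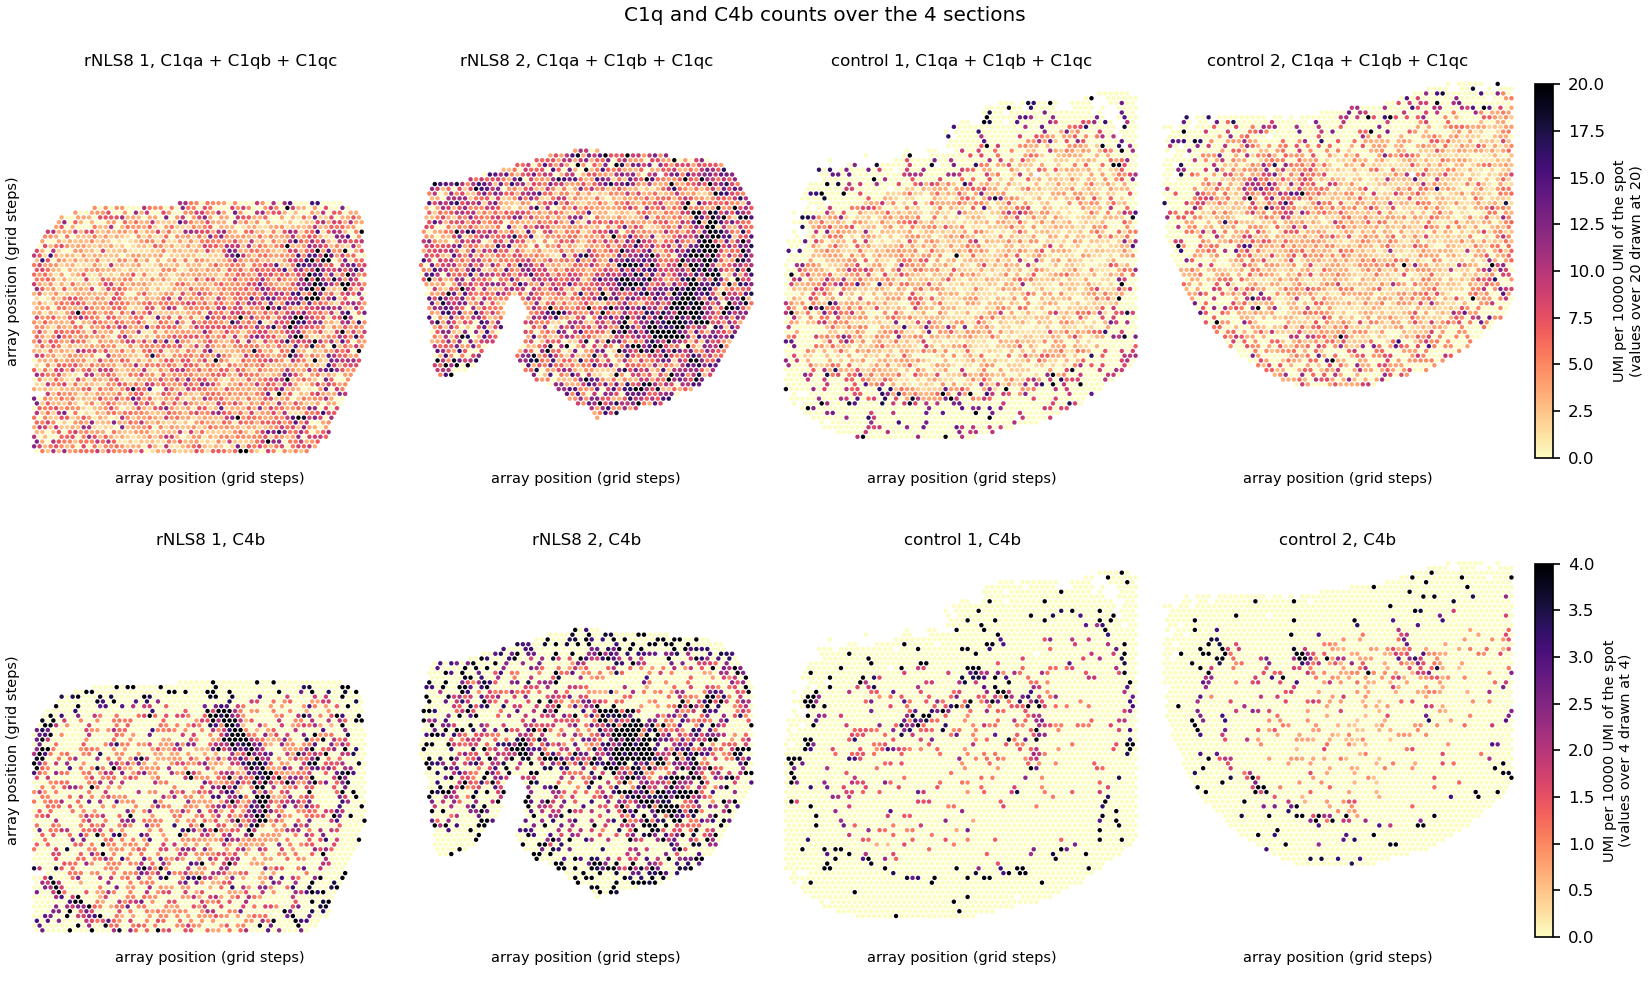
Maps of the 4 sections, rNLS8 left of control, with summed C1q in the upper row and C4b in the lower row. Each spot is coloured by its UMI of these genes per 10000 UMI, the colour scales ending at 20 and 4. Axes are array columns and rows. Spots of high C1q lie in the cortex of both rNLS8 sections, whose Fezf2-Tbr1 cluster averaged 595 CPM of C1qa against 131 CPM in control sections, and C4b is also high along white matter.

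The mix of the 3 C1q chains varied little between whole sections. Of all C1q UMI in whole sections, C1qa made up 58.2% and 55.0% in rNLS8 sections, against 59.4% and 60.3% in controls. C1qb made up 17.03% and 18.6% in rNLS8 sections, against 17.9% and 16.4% in controls. C1qc made up 24.8% and 26.4% in rNLS8 sections, against 22.7% and 23.3% in controls, the 1 chain whose share was higher in both rNLS8 sections. The C1qa share was lower in both. These shares are of counts from probes specific to each gene, so they compare sections and not the chains with each other. Over the 10 named regions and the 4 sections, the C1qc share ran from 21.6% to 30.9% in rNLS8 and from 18.9% to 29.0% in control sections.

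C1q counts were also higher relative to the genes that identify microglia. For each UMI of 13 microglia identity genes (such as Cx3cr1 and P2ry12), whole sections held 1.10 and 1.42 C1q UMI in rNLS8, against 0.887 and 0.736 in control sections. In the cortex there were 1.18 and 1.497 in rNLS8, against 0.796 and 0.672 in control sections. In the Fezf2-Tbr1 cluster there were 1.35 and 1.72 in rNLS8, against 0.791 and 0.650 in control sections. The groups did not overlap in any of the 3, and the log2 differences were 0.63, 0.86 and 1.09. Exact two-sided permutation tests over sections gave p = 0.333 each time, the smallest that 2 sections against 2 allow. The identity genes themselves were also higher, by 0.87 (log2) in the cortex and 1.28 in the Fezf2-Tbr1 cluster. Leaving out P2ry12, Tmem119 and Cx3cr1, which activated microglia are known to lower, gave 0.83 in the cortex. In these data all 12 identity genes tested in the cortex had a positive log2 fold change. In the Fezf2-Tbr1 cluster 4 of 12 tested were called higher by edgeR, Cx3cr1 among them, where 1.63% of all genes were. Without rNLS8 replicate 1 the cortical difference was 1.03, and without any 1 section it stayed between 0.69 and 1.03.

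The ratio was also higher in both rNLS8 sections in white matter (1.08 and 1.42, against 0.655 and 0.756 in controls), the striatum (1.08 and 1.15, against 0.894 and 0.730) and the upper-layer cluster (1.09 and 1.46, against 0.787 and 0.687). The groups overlapped in the septum (0.994 and 1.04 in rNLS8, against 1.09 and 0.697 in control sections), in the basal forebrain (0.967 and 1.37 in rNLS8, against 0.988 and 0.874 in control sections) and in the ependyma (0.801 and 1.07 in rNLS8, against 0.947 and 0.754 in control sections), and in these 3 regions rNLS8 replicate 2 held under 50 spots. C3ar1, also a gene of microglia, stood at 0.0187 and 0.0219 UMI per identity UMI in the cortex of rNLS8 sections, against 0.00707 and 0.00677 in controls.

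**Figure D4:**
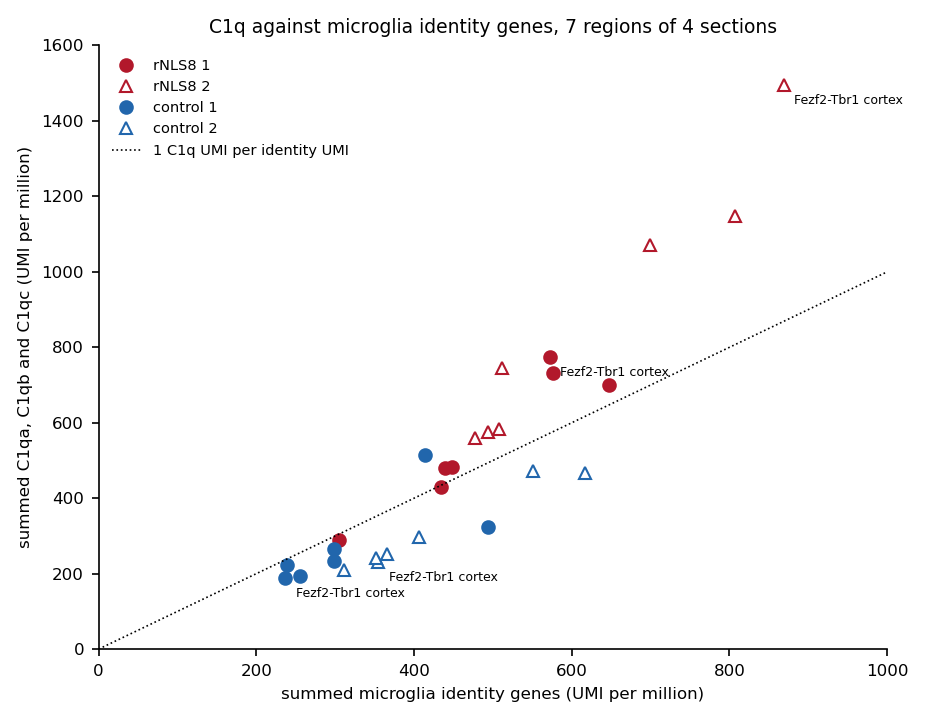
Summed C1q (C1qa, C1qb and C1qc) against 13 summed microglia identity genes, both in CPM of all UMI counted, for 7 regions in each of the 4 sections; red points are rNLS8, blue points control, and the dotted line marks equal counts. Points of the 4 cortical clusters lie below the line in both control sections and above it in rNLS8 replicate 2. In rNLS8 replicate 1 the upper-layer (1.09 C1q UMI per identity UMI) and Fezf2-Tbr1 (1.35) points lie above it. Its Nr4a2-Neurod6 (0.987) and Igfn1-Abi3bp (0.952) points lie below.

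The lists of other cell types give the setting of these counts in the cortex. Microglia identity genes summed to 453 and 600.4 CPM in rNLS8 sections, against 279 and 359 CPM in controls, with 0 of 12 tested genes called (median log2 fold change 0.63, against 0.02 over all genes). All 15 tested genes of microglial activation had a positive log2 fold change (list median 1.68). Of these 7 were called, Tyrobp, Cst7, Cd68, Ctsd, Ctss, Cd52 and Fcer1g. Reactive astrocyte genes summed to 510.4 and 1068 CPM in rNLS8 sections, against 163 and 143 CPM in controls, and Gfap was the 1 called of 10. Interferon response genes summed to 399 and 579 CPM in rNLS8 sections, against 111 and 108 CPM in controls, with 7 of 16 called. Markers of border macrophages, which also make C1q, summed to 12.3 and 12.7 CPM in rNLS8 sections, against 7.60 and 10.8 CPM in controls, with 0 of 3 called. Monocyte and neutrophil markers summed to 0.858 and 2.79 CPM in rNLS8 sections, against 0.282 and 0.365 CPM in controls, Ly6g and Retnlg being at 0 in all sections. Lymphocyte markers summed to 0.095 and 0.349 CPM in rNLS8 sections, against 0.282 and 0.122 CPM in controls, with 7 of 10 at 0. Neuronal genes summed to 8954 and 8691 CPM in rNLS8 sections, against 14662 and 12917 CPM in controls, with 0 of 8 called. The part of these cell types in the complement values was not tested.

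C1q UMI were found in a larger share of cortical spots in both rNLS8 sections than in both controls. With every cortical spot thinned to 3000 UMI (905 and 941 spots in rNLS8, 990 and 767 in control sections), C1q UMI were found in 71.3% (95% Wilson interval 68.2 to 74.1) and 83.3% (80.8 to 85.6) of spots in rNLS8 sections. In control sections they were found in 42.6% (39.6 to 45.7) and 50.2% (46.7 to 53.7) of spots. C4b UMI were found in 22.2% and 30.9% of spots in rNLS8 sections, against 4.34% and 3.52% in controls. Both readouts put all rNLS8 sections above all controls, by 30.9 and 22.6 percentage points, and the exact two-sided permutation p of 0.333 is again the smallest possible. C3ar1 UMI were found in 2.76% and 3.93% of spots in rNLS8 sections, against 0.505% and 1.30% in controls. The intervals cover counting error only. Spots left out for fewer than 3000 UMI were 7 and 22 in rNLS8, 69 and 23 in control sections, and without thinning the C1q shares were 96.4% and 96.9% in rNLS8 and 70.4% and 84.8% in control sections.

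The rim of low-count spots, which lay a median of 2 grid steps from the edge, had shares of its own. Of its spots, 487 of 499 and 657 of 679 reached 1500 UMI in rNLS8 sections, against 90 of 1104 and 773 of 1144 in controls, so the share in control replicate 1 is that of its few deepest rim spots. At 1500 UMI per spot, these rim spots held C1q UMI in 54.8% and 69.9% of spots in rNLS8, against 38.9% and 35.4% in control sections, and cortical spots in 51.4% and 67.2% in rNLS8, against 26.5% and 29.7% in control sections. The C1q share of the cortex was thus no higher than that of the rim, and the part of RNA that spread between spots in these shares was not tested. The tenth of cortical spots with the most C1q held 36.1% and 35.1% of C1q UMI in rNLS8 sections, against 41.4% and 36.3% in controls.

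The spatial score of the C1q genes and C4b was higher in both rNLS8 sections, without a call. The measure is Moran's I, a deposited score for each gene and section that is 0 where spots lie at random and nears 1 where like spots lie together. C4b scored 0.155 and 0.148 in rNLS8 sections, against 0.0855 and 0.0775 in controls. C1qc scored 0.108 and 0.1501 in rNLS8 sections, against 0.0254 and 0.0288 in controls. The groups lay apart for both genes, as for C1qa (0.134 and 0.171 in rNLS8, against 0.0552 and 0.0644 in control sections) and C1qb (0.0713 and 0.105, against 0.0111 and 0.0254). Of all genes tested, 5.33% had both rNLS8 scores above both control scores. No member was called among the 6321 genes tested with limma, of which 2 were (0.0316%), with Benjamini-Hochberg adjusted p of 0.0693 for C4b, 0.0704 for C1qc, 0.212 for C1qb and 0.230 for C1qa. With 1 section left out at a time, the group difference ran from 0.066 to 0.074 for C4b and from 0.081 to 0.123 for C1qc. It ran from 0.074 to 0.111 for C1qa and from 0.053 to 0.086 for C1qb. C3 and C3ar1 had counts in too few spots to be tested. The score also moves with depth and with the share of spots that hold a count, which was higher in rNLS8 sections (C4b in 51.3% and 55.7% of spots, against 14.6% and 15.4% in controls).

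Within the rNLS8 cortex, C1q was most abundant in spots that held Cst7, a cysteine protease inhibitor of activated microglia. Such spots numbered 134 and 256 in rNLS8 sections, against 2 and 3 in controls. Summed C1q stood at 1004 CPM in them in rNLS8 replicate 1, 578 CPM at 1 step on the grid, 419 at 2, 404 at 3 and 458 beyond. In rNLS8 replicate 2 the values were 1517, 839, 573, 547 and 611 CPM. The level thus fell within 2 steps and was then flat, at 2.19 and 2.48 times the far level in the Cst7 spots themselves. Spots with at least 2 Cst7 UMI reached 4.40 and 4.08 times. Even beyond 3 steps C1q was above the 204 and 227 CPM of the control spots that lay as far from any Cst7 count. The spots beyond 3 steps, 69 in each rNLS8 section, were shallower, with 608580 and 417008 UMI in all. The Cst7 spots held 1407617 and 2281212 UMI in all. Cst7 is also among the genes that lead the Fezf2-Tbr1 cluster, and the parts of depth and layer in these levels were not tested. Microglia identity genes were also higher in the Cst7 spots, at 718 and 899.5 CPM, against 452 and 499 CPM beyond 3 steps.

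C4b was also higher in these spots, by a smaller ratio to the level beyond 3 steps than C1q. It had 108 CPM in Cst7 spots and 59.2 CPM beyond 3 steps in rNLS8 replicate 1, and 201 CPM and 118 CPM in rNLS8 replicate 2, ratios of 1.83 and 1.71. At 1, 2 and 3 steps C4b had 74.1, 74.05 and 64.6 CPM in rNLS8 replicate 1. In rNLS8 replicate 2 it had 129, 86.5 and 72.2 CPM there, so its level beyond 3 steps lay above those at 2 and 3 steps. The smaller ratio thus depends on the far spots in that section. Control spots beyond 3 steps held 14.2 and 11.4 CPM. C4b far from any Cst7 count thus still stood well above the control level. C3ar1, at 14.9 and 18.4 CPM in the Cst7 spots, had ratios of 3.03 and 1.92, on 21 and 42 UMI. The values beyond 3 steps rest on 69 spots in each rNLS8 section, and spots of 1 section are not replicates.

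**Figure D5:**
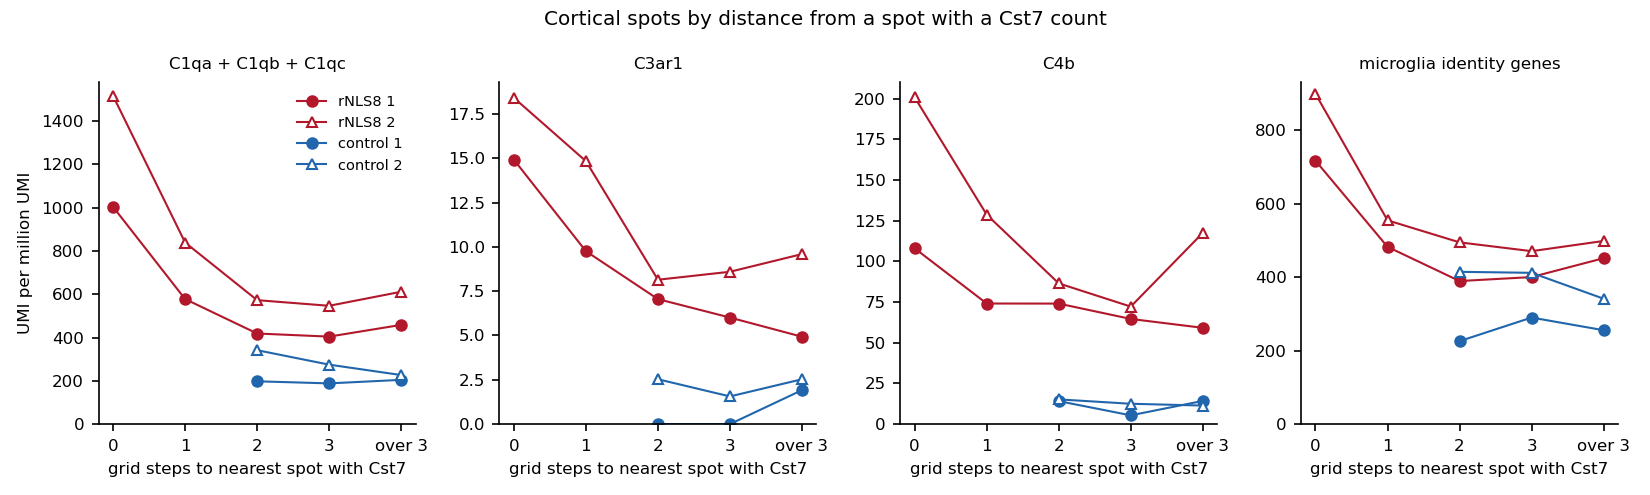
Level of summed C1q, C3ar1, C4b and summed microglia identity genes, in CPM of all UMI counted, in cortical spots by their distance in grid steps from the nearest spot with a Cst7 count; red lines are the rNLS8 sections and blue points the control sections, and rings with under 20 spots are not drawn. C1q in rNLS8 sections was 1004 and 1517 at 0 steps and 458 and 611 beyond 3 steps, while control spots beyond 3 steps held 204 and 227.

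The C1q genes followed one another closely over regions. Over 28 sums of 7 regions in 4 sections, log2(CPM + 1) of C1qb correlated with C1qc at Pearson's r = 0.980, C1qa with C1qc at 0.977 and C1qa with C1qb at 0.970. C4b correlated with the 3 at 0.869 to 0.889. The points share sections and groups, so these values describe and test nothing. Among 11615 other genes those most like C1qa were Cyba, a subunit of the phagocyte NADPH oxidase (0.951), Fcer1g, the signalling chain of Fc receptors (0.930), Cd37, Laptm5 and Cd68. Fcer1g (0.962), Cyba, Grn, Cd37 and Trim21 were most like C1qb. Grn, progranulin (0.948), Fcer1g, Cd37, Cyba and the chemokine gene Ccl12 were most like C1qc. C4b was most like Gfap, the filament protein of reactive astrocytes (0.970), then Ctsa, Npc2, Trim21 and Lap3. For C3ar1 the list was Csf3r, a granulocyte growth factor receptor (0.898), Man2b2, Hexa, Cd33 and Ifit1. For C3, on 68 UMI in all, it was Hspb6 (0.756), Lims1, Lamp2, Axl and Ctsl.

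From spot to spot within the rNLS8 cortex, C1q went with genes of lysosomes and antigen presentation. Over spots thinned to 3000 UMI, the 10 genes that correlated most with summed C1q, out of 7315, included Ctsb, Ctsd, B2m, Mpeg1, Ctss, Cst3, Gfap, Cst7 and Grn. Ctsb, the lysosomal protease cathepsin B, had r of 0.379 and 0.529 in rNLS8 sections, against -0.00912 and -0.0246 in control sections. B2m, beta-2 microglobulin of the class I complex, had 0.367 and 0.499 in rNLS8 sections, against -0.00664 and 0.0178 in control sections. Cst3, cystatin C, also went with C1q in control sections (0.373 and 0.413 in rNLS8, against 0.219 and 0.180). C4b and summed C1q had r of 0.0857 and 0.132 in rNLS8 sections, against -0.00342 and -0.0219 in controls. C4b had low values with every gene, the highest mean over the rNLS8 sections among 7318 being 0.170 with Gfap, and C1qc ranked 8 in that order. The spots of a section share its depth and layers, C1q was sparse in control spots, and these values have no test.

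Few other genes of the pathway passed the test. Of 13 genes of the classical and lectin pathways beside the members 11 were listed, C1s1 and C4a not being among them, and 0 of the 4 tested in the cortex passed (median log2 fold change 0.11, against 0.02 over all genes). Those with the most counts were Masp2, a lectin pathway protease, at 10.4 and 6.64 CPM in rNLS8 sections, against 15.1 and 14.1 CPM in controls (-0.77, adjusted p = 0.191 by edgeR), and Colec12, a scavenger receptor, at 4.67 and 4.77 CPM, against 4.65 and 4.01 CPM. Of 3 alternative pathway genes, Cfp, properdin, was the 1 tested, at 9.73 and 9.55 CPM in rNLS8 sections, against 10.3 and 10.3 CPM in controls, and Cfb, factor B, had 54 UMI in all. None of the 7 terminal pathway genes had enough counts in the cortex, and C7 and C8g, the highest, had 122 and 74 UMI in all. The genes downstream of C3 were thus near the limit of detection.

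Of 10 complement receptor genes 6 were tested in the cortex and 0 passed (median 0.42). Calr, calreticulin, a C1q-binding chaperone, had 233 and 236 CPM in rNLS8 sections, against 159 and 210.4 CPM in controls (0.34, adjusted p = 0.307 by edgeR), and Cd93 had 10.5 and 8.03 CPM, against 5.91 and 8.03 CPM. In the Fezf2-Tbr1 cluster Itgb2, the shared chain of complement receptors 3 and 4, was called. It had 11.6 and 19.9 CPM in rNLS8 sections, against 2.11 and 1.64 CPM in controls (3.03, adjusted p = 0.0175 by edgeR). Its groups lay far apart, in a cluster where 28.5% of genes had both rNLS8 sections above both controls and 1.63% were called higher. Of 18 regulator genes 15 were tested in the cortex and 0 passed (median 0.20), with Clu, clusterin, at 875 and 992 CPM in rNLS8 sections, against 747 and 666 CPM in controls (0.40, adjusted p = 0.191 by edgeR), and Sez6l2 at 641 and 616 CPM, against 568 and 498 CPM.

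Among the secreted C1q-like proteins of synapses, which share the C1q fold but belong to neurons, 1 of the 6 tested in the cortex passed, Cbln4, cerebellin 4, which fell to 15.4 and 7.10 CPM in rNLS8 sections, against 58.1 and 52.0 CPM in controls (log2 fold change -2.28, adjusted p = 0.0467 by edgeR). Cbln2, cerebellin 2, had 42.5 and 54.1 CPM in rNLS8 sections, against 99.2 and 99.6 CPM in controls (-1.04, adjusted p = 0.0524 by edgeR). Both genes lay lower in both rNLS8 sections. In the Fezf2-Tbr1 cluster both were called, at -2.38 for Cbln4 and -1.25 for Cbln2, as in the upper-layer cluster, at -2.43 and -1.04. The list's median was -0.27 in the cortex, where neuronal markers as a list were also lower (median -0.43).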

How the data were processed

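The authors deposited, for each section, a matrix of raw UMI counts per gene and spot (from Space Ranger 2.1.0, per the file headers, on mm10, per the labels) and a table of Moran's I, a score per gene that they deposited already computed. FFPE Visium counts gene-specific probes, so 1 probe set decides what is seen of a gene.

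Spots with at least 500 UMI were kept: 3031 and 2655 in rNLS8, 3810 and 3306 in control sections, 192 being left out. They were clustered with scanpy 1.11.5 (scale 10000, 2000 variable genes without the complement, microglial, macrophage, leukocyte, reactive astrocyte and interferon lists, depth trend removed and genes scaled within each section, 30 components, 5 neighbours in each section, Leiden resolution 1, leidenalg 0.10.2). A cluster was named by the marker list that led it with at least 3 markers among 50 leading genes. One whose median UMI was under 0.5 of its section's median was called the low-count rim. Response genes outside those lists took part. A plainer clustering split cortex and striatum by group and was not used. Of the spot barcodes, 1827 occur in all 4 sections.

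Sums of UMI over each section and region (50 or more spots in every section for a test) were tested with edgeR 4.0.16 (quasi-likelihood, TMM, filterByExpr; R 4.3.3), with Benjamini-Hochberg adjustment over all genes of a fit and a threshold of 0.05. Levels are CPM on TMM-scaled library sizes, and C1q and identity counts per spot ring or ratio are per UMI counted. SE is the log2 fold change over the root of the F statistic. DESeq2 1.42.0 was an alternative. Moran's I was tested with limma 3.58.1 over genes counted in 10% of spots of every section. The edgeR step was tested on simulated data with known changes. Sections are 1 per sample with no label naming separate mice, so p-values measure the spread between these sections. Other tools were Python 3.11.15, scipy 1.17.1 and matplotlib 3.10.9.

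The members, lists and tests were chosen with earlier results of these data known. Named are the 6 members; the genes of 6 pathway lists by count, with values where called and for the 2 with most counts per list; for each member the 5 genes most correlated over regions, among those with 200 UMI; and for C1q the 10 most correlated over spots, among those in 5% of spots. Of the last, 1 gene is not reported here. Fractions of spots carry 95% Wilson intervals. A count of 0 allows up to 3 counts. Intervals and floors cover counting error only.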

Additional observations from a re-analysis of the deposited data

Results flagged for a closer look

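The difference between rNLS8 and control sections was itself different in 2 compartments for 3 complement genes, by an interaction test in edgeR with the section as a block. The log2 fold change in the cortex exceeded that in all other spots by 1.29 for C4b, by 0.77 for C1qb and by 0.66 for C1qa. In each of the 3, both rNLS8 sections lay above both controls inside the cortex, where 29.0% of genes tested did. These calls did not hold without control replicate 1 or without control replicate 2, when no gene was called (adjusted p = 0.599 and 0.67 for C1qa, 0.588 and 0.156 for C4b), although the differences kept their direction (0.58 and 0.72 for C1qa, 1.13 and 1.40 for C4b). Groups of 2 sections are too small to be searched for a section that stands apart.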

How the results depend on the processing

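Of 396 alternative values of single complement genes in 1 region or score, 264 kept their direction and their side of the threshold, 112 passed it where they had not, 18 no longer passed and 2 turned round. The last were C4b without control replicate 2 (log2 fold change -0.058, against 1.08 without control replicate 1) and C3ar1 without rNLS8 replicate 2 (-0.049, against 1.79 without control replicate 2), both in meninges and vessels. In whole sections edgeR called 0 genes and 0 members, against 239 genes and 5 members with no filter on low counts and 520 and 5 with DESeq2. In the cortex it called 83 genes and 1 member, against 0 and 0 with library totals only (C4b at 3.06, adjusted p = 0.0522), 161 and 5 with relative log expression factors, 768 and 5 with no filter, and 710 and 5 with DESeq2. Regrouping the spots at a Leiden resolution of 0.5 or 2 also changed the number of members called in the cortex. Leaving out the Igfn1-Abi3bp cluster, an alternative chosen after seeing the data, gave 155 genes and 5 members. Library totals moved the median of all genes in the cortex to 0.17, against 0.02 with TMM. They called 291 genes in the Fezf2-Tbr1 cluster, 13 in the Nr4a2-Neurod6 cluster and 25 in the striatum. The number of members called in white matter changed with them as well.

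The sections share replicate numbers, but no label ties a number to a litter or day, and same-numbered sections did not deviate together (r = -0.063 over 13444 genes in whole sections). With a replicate block the test called 78 genes and 2 members in whole sections, 858 and 5 in the cortex and 762 genes in the Fezf2-Tbr1 cluster. In the upper-layer cluster C3ar1 was then not called (1.95, adjusted p = 0.0528 by edgeR). The block gave 396 genes and 4 members in the Nr4a2-Neurod6 cluster, 237 genes in the Igfn1-Abi3bp cluster and 184 and 2 in the striatum. It gave 136 and 4 in white matter, 96 and 1 in meninges and vessels, and 0 by spatial score.

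Leaving out 1 section at a time, where the lone section of a group is taken to vary like the others, gave 2 to 1839 genes and 0 to 5 members in whole sections and 7 to 4124 and 1 to 5 in the cortex. The ranges were 100 to 2310 and 1 to 5 in the upper-layer cluster, 152 to 3159 and 4 to 5 in the Fezf2-Tbr1 cluster, 22 to 2861 and 1 to 4 in the Nr4a2-Neurod6 cluster, and 36 to 913 and 1 to 3 in the Igfn1-Abi3bp cluster. They were 12 to 1308 and 0 to 4 in the striatum, 4 to 1054 and 1 to 4 in white matter, 6 to 1622 and 0 to 4 in meninges and vessels, 0 to 682 and 0 to 4 for cortex against all other spots, and 5 to 60 and 0 to 4 by spatial score. In most of these comparisons the highest number of genes came without control replicate 2 and the lowest without rNLS8 replicate 2. The log2 difference of C1q per microglial count was 0.45 to 0.81 in whole sections and 0.69 to 1.03 in the cortex.

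Cortex against white matter alone called 69 genes and 1 member, and against the striatum alone 69 genes. The spatial score called 0 genes without the trend. The difference in the share of cortical spots was 24.9 to 36.9 percentage points for summed C1q, 23.5 to 37.1 for C1qa, 16.0 to 24.6 for C1qb, 16.3 to 33.4 for C1qc, 1.86 to 3.03 for C3ar1 and 18.3 to 27.0 for C4b without 1 section. At 1500 UMI per spot it was 22.3 for C1qa, 13.5 for C1qb, 1.44 for C3ar1 and 12.1 for C4b, and without thinning 34.7 for C1qb, 36.4 for C1qc, 8.30 for C3ar1, 45.2 for C4b and 19.0 for summed C1q. With at least 2 Cst7 UMI the log2 ratio of Cst7 spots over far spots was 2.04 for C1qa, 2.13 for C1qb, 2.15 for C1qc, 1.32 for C4b and 2.08 for summed C1q. In a single rNLS8 section it was 1.08 to 1.22 for C1qa, 1.01 to 1.48 for C1qb, 1.33 to 1.40 for C1qc, 0.94 to 1.60 for C3ar1, 0.77 to 0.87 for C4b and 1.13 to 1.31 for summed C1q. The cause of these shifts was not tested. With 2 sections per group, and rNLS8 replicate 1 against its sex label, sex, slide and section level cannot be separated from spread between sections, and C3 is limited by its 68 UMI.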
